A study of Mus musculus with 24 samples.

Results

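The genes described here are the autosomal genes of mouse mammary basal cells whose H3K4me3 was strong and whose H3K27me3 was at a low level. H3K4me3, trimethylation of lysine 4 of histone H3, marks active and poised promoters, and H3K27me3, trimethylation of lysine 27, is the mark that Polycomb complexes lay down over repressed genes. Genes were selected on both marks. Each count was divided by its library total and scaled to CPM (counts per 1e6 counts of the library), then averaged over the 8 libraries of a mark. A gene was taken at a mean H3K4me3 of at least 100 CPM and a mean H3K27me3 under 0.3 CPM per kb of its RefSeq length. The rule took 1445 of 23916 autosomal genes with a RefSeq length, from tables of 27080 genes in all. A further 735 autosomal genes reached 100 CPM of H3K4me3 but carried more H3K27me3, and they are called the other strong promoters below. Since both levels chose the genes, they are given as a description and are not tested.

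The libraries came from mammary gland cells of untreated C57BL/6 females, sorted as basal cells and divided by Lgr5, a receptor for R-spondin in Wnt signalling, and by the membrane tetraspanin Tspan8. This gave 4 subpopulations: Lgr5+Tspan8hi, Lgr5+Tspan8-, Lgr5-Tspan8hi and Lgr5-Tspan8-, with 2 libraries each for each mark and 16 libraries in all. The sources used here do not give the ages, the number of animals behind a library, how Lgr5 was detected or whether replicates came from separate animals. P-values therefore measure only the spread between these libraries, which may be technical.

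H3K4me3 is written by the SET1 and MLL methyltransferase complexes. These are drawn to stretches of unmethylated CpG dinucleotides by proteins with CXXC domains, so that most CpG island promoters carry the mark whether the gene is read heavily or lightly. Polycomb complexes also occupy CpG islands, in particular those of developmental regulators that are silent in a tissue, and a promoter that carries both marks is called bivalent. Promoters with H3K4me3 alone are the usual state of housekeeping genes and of genes that a cell can switch on within minutes.

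Of the 1445 members, 1181 (81.7%) had a promoter window among the RefSeq promoters, on GRCm38.p6, a patch release of the assembly known as mm10. A window holds 250 bases before and 50 bases after a gene start, and the 7 printed here are each the first listed window of that gene. They were chosen to show the range of sequence among members, whose H3K4me3 here ran from 117 CPM at Acta2 to 256 CPM at Dusp6. Shown are the strongest named member (Dusp6, an ERK phosphatase) and a pair of genes read in opposite directions from one region (Hnrnpa2b1 and Cbx3). Then come a ribosomal protein gene (Rpl18), a cell cycle inhibitor (Cdkn1b) and a gene with a TATA box (Zfp36l1, an mRNA-decay factor). Last is the gene of the contractile basal cell (Acta2, smooth muscle actin). Capitals mark every CpG dinucleotide, and sequences run 5′ to 3′ on the strand of the gene. The windows were chr10:99262981-99263280 (plus strand) for Dusp6, chr12:80112964-80113263 (minus) for Zfp36l1, chr6:51469845-51470144 (minus) for Hnrnpa2b1, chr6:51470366-51470665 (plus) for Cbx3, chr7:45717821-45718120 (plus) for Rpl18, chr6:134920151-134920450 (plus) for Cdkn1b and chr19:34255324-34255623 (minus) for Acta2.
Dusp6: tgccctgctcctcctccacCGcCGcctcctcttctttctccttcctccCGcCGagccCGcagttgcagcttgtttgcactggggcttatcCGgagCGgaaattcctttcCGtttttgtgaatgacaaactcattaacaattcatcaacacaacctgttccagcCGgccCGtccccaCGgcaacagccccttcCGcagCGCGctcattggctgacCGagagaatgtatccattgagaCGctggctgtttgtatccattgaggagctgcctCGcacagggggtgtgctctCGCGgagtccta
Zfp36l1: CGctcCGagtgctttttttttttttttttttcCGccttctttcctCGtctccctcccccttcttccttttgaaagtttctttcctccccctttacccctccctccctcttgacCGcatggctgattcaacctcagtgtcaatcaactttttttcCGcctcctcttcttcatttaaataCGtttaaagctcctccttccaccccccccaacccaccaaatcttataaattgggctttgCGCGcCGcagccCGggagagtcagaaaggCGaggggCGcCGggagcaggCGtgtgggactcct
Hnrnpa2b1: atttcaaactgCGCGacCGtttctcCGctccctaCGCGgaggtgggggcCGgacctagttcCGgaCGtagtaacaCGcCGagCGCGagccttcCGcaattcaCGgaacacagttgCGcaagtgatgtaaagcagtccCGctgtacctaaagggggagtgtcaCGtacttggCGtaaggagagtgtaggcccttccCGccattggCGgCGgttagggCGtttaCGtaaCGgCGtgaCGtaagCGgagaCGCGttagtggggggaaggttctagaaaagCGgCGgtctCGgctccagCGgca
Cbx3: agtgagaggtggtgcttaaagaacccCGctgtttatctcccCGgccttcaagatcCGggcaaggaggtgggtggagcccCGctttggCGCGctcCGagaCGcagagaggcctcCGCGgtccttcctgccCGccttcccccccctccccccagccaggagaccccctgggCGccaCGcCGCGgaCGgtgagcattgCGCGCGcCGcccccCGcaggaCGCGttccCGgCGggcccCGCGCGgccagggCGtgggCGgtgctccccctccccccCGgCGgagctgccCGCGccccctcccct
Rpl18: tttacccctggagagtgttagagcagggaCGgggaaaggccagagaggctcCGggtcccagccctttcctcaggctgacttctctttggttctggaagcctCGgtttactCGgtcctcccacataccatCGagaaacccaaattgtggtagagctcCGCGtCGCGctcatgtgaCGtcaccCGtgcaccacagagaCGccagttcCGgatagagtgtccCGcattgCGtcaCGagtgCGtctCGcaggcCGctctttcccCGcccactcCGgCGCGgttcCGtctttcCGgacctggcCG
Cdkn1b: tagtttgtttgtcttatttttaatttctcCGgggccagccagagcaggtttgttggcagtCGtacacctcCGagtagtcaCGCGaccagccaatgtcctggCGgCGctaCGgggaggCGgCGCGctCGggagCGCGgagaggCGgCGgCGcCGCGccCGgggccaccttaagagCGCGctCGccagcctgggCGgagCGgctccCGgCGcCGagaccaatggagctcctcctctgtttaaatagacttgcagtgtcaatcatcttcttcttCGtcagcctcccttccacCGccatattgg
Acta2: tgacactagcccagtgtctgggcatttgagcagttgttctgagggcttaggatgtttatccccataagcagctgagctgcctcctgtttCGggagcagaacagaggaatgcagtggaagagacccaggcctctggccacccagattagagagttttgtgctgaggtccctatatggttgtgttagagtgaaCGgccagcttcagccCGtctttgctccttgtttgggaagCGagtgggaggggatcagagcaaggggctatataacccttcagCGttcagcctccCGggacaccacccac

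The windows of Hnrnpa2b1 and Cbx3 held 34 CpGs each, that of Cdkn1b 30, Rpl18 26, Dusp6 19, Zfp36l1 15 and Acta2 6. The ratio of observed to expected CpGs, which corrects for the base composition, was 1.28 at Hnrnpa2b1, 1.04 at Cdkn1b, 0.929 at Rpl18, 0.84 at Zfp36l1, 0.815 at Cbx3, 0.802 at Dusp6 and 0.27 at Acta2. Acta2, with 117 CPM of H3K4me3 counted for the gene, had the fewest CpGs and the lowest H3K4me3 of the 7. The region counted for each gene is not given in the sources used here, and the window of Rpl18 lies inside the span of its RefSeq gene, so a gene's CPM and its window need not cover the same bases. In the window of Zfp36l1 a TATAAA match began 29 bases before the start, the usual place of a TATA box. The letters TGACGTCA, a cyclic AMP response element, began at position -79 of Rpl18. CCAAT boxes on either strand were found in the windows of Dusp6 (at -46), Hnrnpa2b1 (at -51), Zfp36l1 (at -24) and Cdkn1b (at -161, -35 and 46).

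Over all 1554 windows of the members, the median ratio of observed to expected CpGs was 0.869 (quartiles 0.706 and 0.996), against 0.573 (0.231 and 0.833) over the 21203 windows that the table holds for autosomal genes, members included. Those cover 73.3% of autosomal genes, so shares of all windows describe the genes listed and not every gene. CpG-island-like sequence, taken as a ratio of at least 0.6 with at least 50% G and C, made up 81.5% of the members' windows and 45.6% of all windows. The median content of G and C was 66.7% against 56.7%. As the plot of CpG content shows, windows of all genes fell into a CpG-poor and a CpG-rich class, and the members drew mostly on the second. The other strong promoters, of whose genes 69.3% had a window, had a median ratio of 0.792 and a median G and C content of 65.3%. CpG-island-like sequence made up 78.3% of their windows, against 81.5% of the members', and the differences were not tested. Genes with more than one start enter with each of their windows, and the windows of neighbouring genes overlap.

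**Figure D1:**
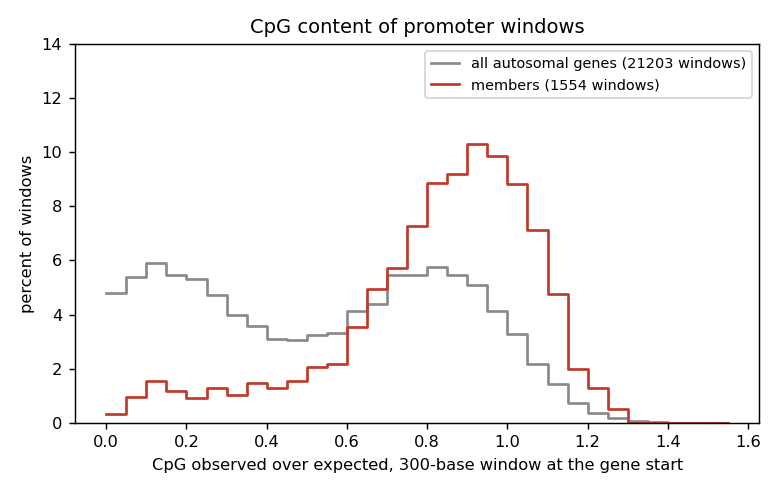
Ratio of observed to expected CpGs in 300-base windows at gene starts, as the percent of windows in bins of 0.05, for the 1554 windows of the members and the 21203 of all autosomal genes (members included). The members' median is 0.869 and that of all windows 0.573.

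Short motifs were counted in the same windows on both strands, and are a description of letters, not of binding. The ETS motif CCGGAAG was present in 15.8% of the members' windows and 11.6% of all windows. For the YY1 motif AAGATGGCG the shares were 3.47% and 1.8%, and for the ZBTB33 motif TCTCGCGA 3.73% and 1.33%. The GC box GGGCGG stood in 73.1% against 46.4%. The TATA box TATAAA was the less common one, at 5.92% against 12.4%. The CCAAT box (CCAAT) stood in 34% and 38%, and the NRF1 motif GCGCATGC in 4.05% and 3.52%. The E-box CACGTG stood in 9.46% and 7.9%, and the cyclic AMP response element TGACGTCA in 3.28% and 2.31%. All of these motifs but the TATA and CCAAT boxes hold a CpG themselves, so their shares move with the CpG content. None of the motifs lies whole within another. At the other strong promoters the GC box stood in 70.7% of windows and the TATA box in 9.52%. Shares there were 9.05% for the ETS motif, 1.09% for the YY1 motif and 1.72% for the ZBTB33 motif. They were 37.6% for the CCAAT box, 3.74% for the NRF1 motif, 11.1% for the E-box and 3.74% for the cyclic AMP response element.

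The members lay on every autosome, from 3.91% of the measured genes of chromosome 6 to 8.24% of chromosome 11. In RefSeq 1360 of them code for proteins, 69 are long non-coding RNAs, 7 are microRNAs and 7 are small nucleolar RNAs. Many shared a promoter with a neighbour. When starts within 2 kb were joined, the 1445 genes came down to 1238 promoters, and 568 members (39.3%) shared a promoter with another gene, against 18.6% of all autosomal genes and 41.0% of the other strong promoters. For 529 members (36.6%) the partner was on the opposite strand, against 16.1% of all autosomal genes and 34% of the other strong promoters. In 193 promoters exactly 2 members met, and their H3K4me3 differed by a median factor of 1.02. The RefSeq gene spans of Hnrnpa2b1, an RNA-binding protein of the spliceosome, and Cbx3, a heterochromatin protein, begin 106 bases apart. These genes stood at 224 and 230 CPM. Their printed windows lie at other listed starts, at 51469894 and 51470616 on chromosome 6. The spans of Rpl7, a protein of the large ribosomal subunit, and Rdh10, a retinol dehydrogenase, begin 1449 bases apart. Their levels were 205 and 207 CPM. In 168 of the 193 promoters (87.0%) the pair lay within 10% of each other. Members of one promoter may share reads and are not counted here as independent.

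Across the members the mean H3K4me3 had a median of 119.7 CPM (quartiles 108.5 and 135.9), with 214 genes at 150 CPM or more, 31 at 200 CPM or more and 3 at 250 CPM or more. H3K27me3 had a median of 0.227 CPM per kb (quartiles 0.196 and 0.255), against 0.431 at the other strong promoters and 0.563 over all autosomal genes. As the scatter of both marks shows, the members are the right-hand end of a dense group of genes at about that density, and no gap in either mark sets them apart. Next to the H3K4me3 limit, Ubfd1 at 100.03 and Nr2c2 at 100.05 CPM were inside, while Isca1 at 99.977 and Eogt at 99.989 CPM were outside. Next to the H3K27me3 limit, Camsap2 at 0.29997 and Map7 at 0.29963 CPM per kb were inside, while Snhg8 at 0.30006 and 1700025G04Rik at 0.30007 were outside. The H3K27me3 level rests on few reads at many members, with a median of 31.9 counts per library and a lower quartile of 10.5, and 26 members are shorter than 1 kb. That limit is per kb, and membership varied with gene length. Median length was 28130 bases for members, 18940 for the other strong promoters and 14720 for all autosomal genes. Of genes with at least 100 CPM, 52.3% of the shortest quartile were members. The share was 75% and 75.8% in the next quartiles and 62% in the longest. The part of length in the shares of gene lists below was not tested.

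**Figure D2:**
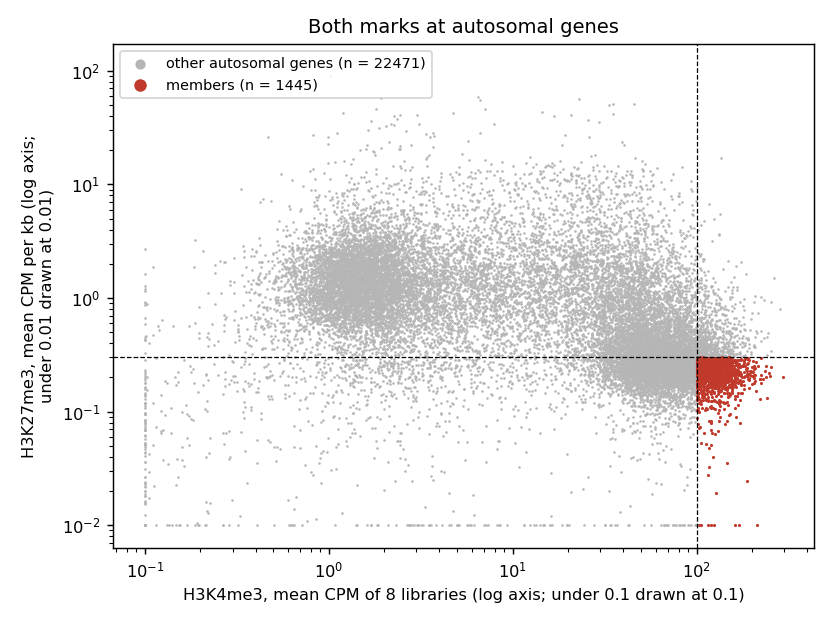
Mean H3K4me3 (CPM, log axis) and mean H3K27me3 (CPM per kb, log axis) of the 23916 autosomal genes, with the 1445 members in red and the limits of 100 CPM and 0.3 CPM per kb as dashed lines. The members form the edge of a continuous group and not a cluster of their own.

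The labels were checked against genes of the mammary basal layer and of other cell types. Krt5 and Krt14, the basal keratins, had 139 ± 25.3 and 130 ± 19.5 CPM of H3K4me3 (SD, n = 8 libraries), and Acta2 117 ± 15.2 CPM. Trp63, which encodes the basal transcription factor p63, had 1.77 ± 0.842 CPM at the region counted. Of 24 basal and myoepithelial genes 14 reached 100 CPM, against 4 of 26 luminal genes, none of the 14 fibroblast, 14 endothelial and 16 immune genes, 1 of 10 adipocyte genes and 1 of 11 Schwann and neural genes. That last gene was Sox10, a transcription factor of neural crest and mammary cells, at 142 ± 12.1 CPM. Mean H3K4me3 per gene of the basal list was 85.4 to 106.0 CPM over the 8 libraries, of the luminal list 48.4 to 54.5, the fibroblast list 24.9 to 39.2, the endothelial list 14.3 to 23.2, the immune list 6.17 to 9.0, the adipocyte list 26.0 to 33.8 and the Schwann and neural list 32.3 to 38.3. Ptprc, the pan-leukocyte gene CD45, stood at 3.35 ± 3.4 CPM, Cd3e at 1.77 ± 1.09 and Adipoq at 1.27 ± 1.34. Total H3K4me3 counts ran from 1472251 to 4740371 per library and total H3K27me3 counts from 2639862 to 6972189. Of each mark the library of Lgr5-Tspan8hi replicate 1 stood apart. At the lowest total of its mark, it had 6150 genes without an H3K4me3 count, against 1749 to 3688 in the other 7, and 4191 without an H3K27me3 count, against 2046 to 2165. Without it the rule took 1439 genes, of which 1344 were among the 1445, the median spread of the 1445 over the subpopulations was 0.23 on the log2 scale, and no member passed in any of the 6 comparisons given at the end.

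Of the named members, Dusp6 (chromosome 10, 99263231 to 99267489), the phosphatase that switches off ERK in the cytoplasm, had the highest H3K4me3 at 256 ± 7.64 CPM (SD, n = 8). Here and in what follows, values of single libraries are pairs of replicates in a fixed order: Lgr5+Tspan8hi, Lgr5+Tspan8-, Lgr5-Tspan8hi and then Lgr5-Tspan8- cells. Dusp6 read 255.5 and 243, 262 and 255, 265 and 257, and 246 and 261 CPM. The subpopulations overlapped, except that both Lgr5-Tspan8hi libraries lay just above both Lgr5+Tspan8hi libraries, and the coefficient of variation of 2.99% over the 8 libraries was the lowest of the 1445 members. Then came Nfib, a nuclear factor I transcription factor, at 248 ± 22.2 CPM, Ier2, an immediate early gene, at 243 ± 15.4, Tsc22d2 at 238 ± 19.5, Tnrc18 at 237.5 ± 13.6, Fosl2, an AP-1 subunit, at 235 ± 18, Cbx3 at 230 ± 24.5 and Arid1a, a subunit of the SWI/SNF remodelling complex, at 224 ± 17.8. Higher still was a pair of non-coding genes that the naming rule left out. A530013C23Rik, which shares its promoter with the transcription factor gene Cebpb, had 294 ± 28.4 CPM, and 0610009L18Rik, which shares its promoter with the actin gene Actg1, had 251 ± 19.6 CPM.

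Gene classes are described by 39 lists, of which 4 were drawn up after the members had been seen, and the share of members in a list is read against 6.042% of all autosomal genes. Because the marks chose the members, these shares are counts without a test. As the plot of gene lists shows, splicing and translation stood high among the classes of RNA and protein synthesis. Of 81 splicing factor genes 30 (37.04%) were members, led by the RNA-binding proteins Hnrnpa2b1 at 224 and Hnrnpdl at 193 CPM and by Srsf2 at 189 CPM, with Hnrnpk and Hnrnpu both at 169 CPM. Of the serine- and arginine-rich splicing factors, Srsf2, Srsf4, Srsf5, Srsf7, Srsf9 and Srsf10 were members. Srsf1, Srsf3 and Srsf6 reached 100 CPM but had 0.412, 0.311 and 0.352 CPM per kb of H3K27me3. Of 53 translation factor genes 16 (30.19%) were members, among them Eef1d, an elongation factor subunit, at 154.5 CPM and Eif1a, an initiation factor, at 145 CPM. Of 75 ribosomal protein genes 18 (24%) were members, with Rpl7 at 205, Rpl35 at 132 and Rpl18 at 131 CPM. The ribosomal genes that were not members mostly had less H3K4me3, since the whole list had a median of 92.3 CPM and 24 of 75 reached 100 CPM. By contrast 4 of 78 mitochondrial ribosomal protein genes (5.128%) and 6 of 106 respiratory chain and ATP synthase genes (5.66%) were members. Both mitochondrial lists had about the same H3K27me3 as the cytoplasmic ribosomal list, with medians of 0.246, 0.232 and 0.235 CPM per kb, and less H3K4me3, with medians of 58.3 and 58.0 CPM.

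Protein turnover and trafficking stood between. Of 113 ubiquitin enzyme and deubiquitinase genes 23 (20.35%) were members, with the conjugating enzyme Ube2d3 at 166 CPM and the deubiquitinase Usp7 at 135 CPM. Of 47 proteasome genes 6 (12.77%) were members, with Psma7, a subunit of the core particle, at 136 CPM. Chaperones held 17 of 83 (20.48%), with Hsp90ab1 at 153 and Hspa8 at 152 CPM. Rab and Ras-like GTPases held 17 of 82 (20.73%), with the trafficking GTPases Arf5 at 154 and Arf4 at 141 CPM. Only 4 of 35 aminoacyl-tRNA synthetase genes (11.43%) and 5 of 55 RNA polymerase and Mediator genes (9.091%) were members. Solute carriers (17 of 368, 4.62%) and the zinc finger genes named Zfp (23 of 384, 5.99%) were at or below the share of all genes.

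**Figure D3:**
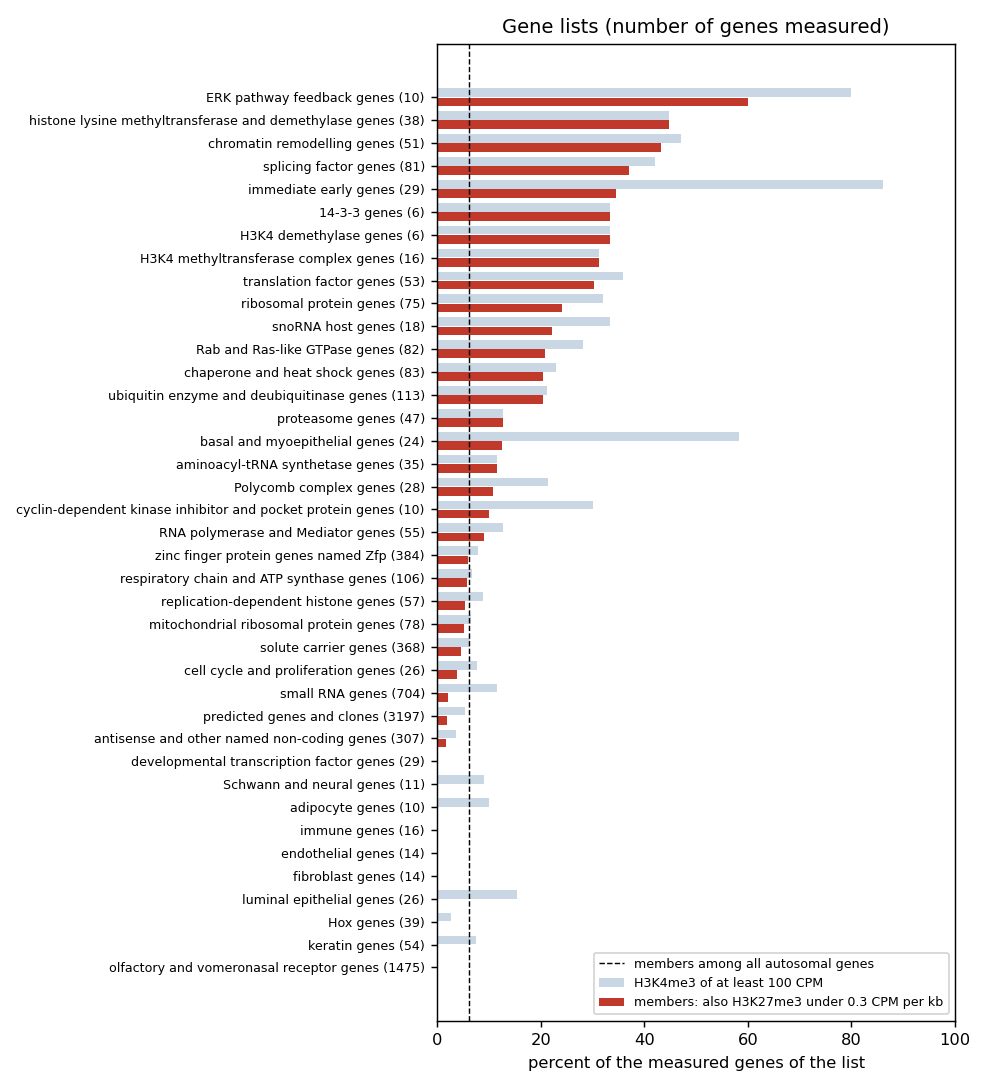
Percent of the measured genes of each list (number in brackets) with H3K4me3 of at least 100 CPM, in blue, and percent that are members, in red, with the 6.042% of all autosomal genes as a dashed line. Lists at the top hold regulators of signalling, chromatin and RNA, while lineage and developmental lists at the bottom hold no member. The lists with the highest shares were drawn up after the members had been seen. They are ERK feedback, histone lysine methyltransferase and demethylase, and chromatin remodelling genes.

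Genes that act on chromatin were themselves frequent. Of 51 chromatin remodelling genes 22 (43.14%) were members and of 38 histone lysine methyltransferase and demethylase genes 17 (44.74%), both lists drawn up after the members had been seen. Arid1a, Arid2 and Arid1b, which encode DNA-binding subunits of SWI/SNF complexes, stood at 224, 215 and 190.1 CPM. Kmt2e, a SET-domain protein, stood at 222 CPM. Among the H3K4 methyltransferase genes, Setd1b had 206 ± 23.2 CPM, Kmt2c 171 ± 18.7, and Kmt2d 165 ± 14.4 (SD, n = 8). With Kmt2a at 151.5 and Wdr82 at 120.0 CPM they made 5 members of 16 genes of the H3K4 methyltransferase complexes. Kdm5b, which removes H3K4 methylation, was a member at 117 CPM and Kdm2b, a demethylase with a CXXC domain, at 122 CPM. Of 28 Polycomb genes 3 were members: Pcgf2 at 173, Yaf2 at 106 and Ezh2, the methyltransferase that writes H3K27me3, at 102 CPM. Pcgf2 shares its promoter with the proteasome gene Psmb3. Ezh2 read 93.8 and 105, 115 and 117.5, 95.04 and 102, and 93.9 and 95.6 CPM. The pair from Lgr5+Tspan8- cells was the highest, and 4 of the 8 libraries were under 100 CPM. Aebp2 and Jarid2 reached 100 CPM but had 0.465 and 0.821 CPM per kb of H3K27me3.

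Signal-responsive genes had the highest medians of the 39 lists, 156.5 CPM for immediate early genes and 150.2 CPM for ERK feedback genes. Of 10 ERK pathway feedback genes, a list drawn up after the members had been seen, 6 were members: Dusp6, Spry2 at 224 ± 21.2, Dusp7 at 211 ± 14.5, Spred1 at 166 ± 14.5, Spred2 at 135 ± 9.75 and Spry1 at 119 ± 13.6 CPM (SD, n = 8). These encode phosphatases of ERK and the Sprouty and SPRED proteins, which hold back the pathway upstream of it. Dusp5 and Dusp4 reached 130.2 and 165 CPM but had 0.413 and 1.18 CPM per kb of H3K27me3. Of 29 immediate early genes, which growth factors and stress switch on without new protein synthesis, 25 reached 100 CPM and 10 were members: Ier2, Fosl2, Jun, Myc, Mcl1, Klf6, Nr4a1, Dusp1, Ier5 and Btg1. Jun, an AP-1 subunit, stood at 203 ± 18.1, Myc at 185 ± 11.4, Mcl1, an inhibitor of cell death, at 161 ± 9.51 and Klf6 at 155 ± 31.1 CPM. The other 15 had a median of 0.396 CPM per kb of H3K27me3 (range 0.309 to 1.26), and 10 of them lay under 0.5. Fos, Egr1 and Junb, at 183, 193 and 208 CPM of H3K4me3, missed membership at 0.4, 0.366 and 0.372 CPM per kb. These genes are short, with a median of 3750 bases for the 15, and the density at Junb rests on a mean of 4.0 counts per library. At Atf3, Fosb and Klf4 it was 1.1, 1.26 and 0.877 CPM per kb.

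Of the lineage lists only the basal one held members. Of the 14 basal genes with 100 CPM 3 were members, Itga6 at 126 ± 10.6, Itgb1 at 114.5 ± 8.99 and Acta2 at 117 ± 15.2 CPM (SD, n = 8). Itga6 and Itgb1 encode the integrin chains of the basal cell's anchorage to the basement membrane. The other 11, among them Krt5 (0.497 CPM per kb), Krt14 (0.623), Krt17 (0.605), Oxtr, the oxytocin receptor (0.595), and Snai2 (0.54), had densities of 0.338 to 0.623. Luminal genes with 100 CPM were Gata3 (254 CPM, with 0.341 CPM per kb), Cd24a, Grhl2 (0.302) and Krt8, and none was a member. No member was a keratin, a Hox gene, an olfactory receptor or any of 29 developmental transcription factors, a list with a median of 6.416 CPM per kb of H3K27me3. Cdkn1b, the cell cycle inhibitor p27, was the only member of 10 cyclin-dependent kinase inhibitor and pocket protein genes, at 151 ± 15.9 CPM. It read 157 and 135.5, 146 and 133, 169 and 176, and 157 and 137 CPM, so that the pair from Lgr5-Tspan8hi cells was the highest, but neither comparison passed (edgeR adjusted p = 0.905 with Tspan8 and 0.985 with Lgr5). Mcm7, a subunit of the replicative helicase, was the only member of 26 proliferation genes, at 105 CPM. Neither Lgr5 (78.1 ± 16.7 CPM of H3K4me3 and 0.722 CPM per kb of H3K27me3) nor Tspan8 (52.2 ± 29.8 CPM and 0.51 CPM per kb) was a member.

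Over the 4 subpopulations the members' H3K4me3 was close to level. The ratio of the highest to the lowest subpopulation mean had a median of 1.167 (0.22 on the log2 scale, quartiles 0.16 and 0.30), and 1435 of the 1445 members (99.31%) stayed within 1.5-fold. The spread between subpopulations was no wider than that between replicates. The median absolute log2 ratio of a pair of libraries was 0.161 within a subpopulation and 0.156 between subpopulations. Median H3K4me3 of the members was 122 CPM in Lgr5+Tspan8hi, 120.3 in Lgr5+Tspan8-, 121 in Lgr5-Tspan8hi and 118 in Lgr5-Tspan8- cells, and the last was the lowest for 482 members. Members took 18.3% ± 0.429 of all H3K4me3 counts (SD, n = 8, range 17.7% to 19.0%). The share was 18.5% ± 0.421 in Tspan8hi and 18.1% ± 0.399 in Tspan8- libraries (SD, n = 4 each), which overlapped. The other strong promoters had a median spread of 0.23 on the log2 scale, against 0.22, and the difference was not tested.

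Classes differed little in this spread. Its median was 0.17 for the 6 ERK feedback genes, 0.18 for the 10 immediate early genes, 0.19 for the 30 splicing factors, 0.21 for the 16 translation factors, 0.23 for the 22 chromatin remodelling genes, 0.25 for the 18 ribosomal protein genes and 0.27 for the 17 solute carriers, on the log2 scale. Klf6 was the widest of the immediate early genes at 0.54. It read 169.8 and 160.4, 147 and 158, 220.0 and 140.4, and 128 and 119 CPM, so that its highest value came from the library that stood apart. Among all named members the narrowest were Eef1d and Mef2d at 0.0296, Ppp1r12a at 0.0319 and Mrps6 at 0.0333. Their single libraries varied more than that, from 136 to 174 CPM at Eef1d and from 135 to 178 CPM at Mef2d, a MADS-box transcription factor.

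**Figure D4:**
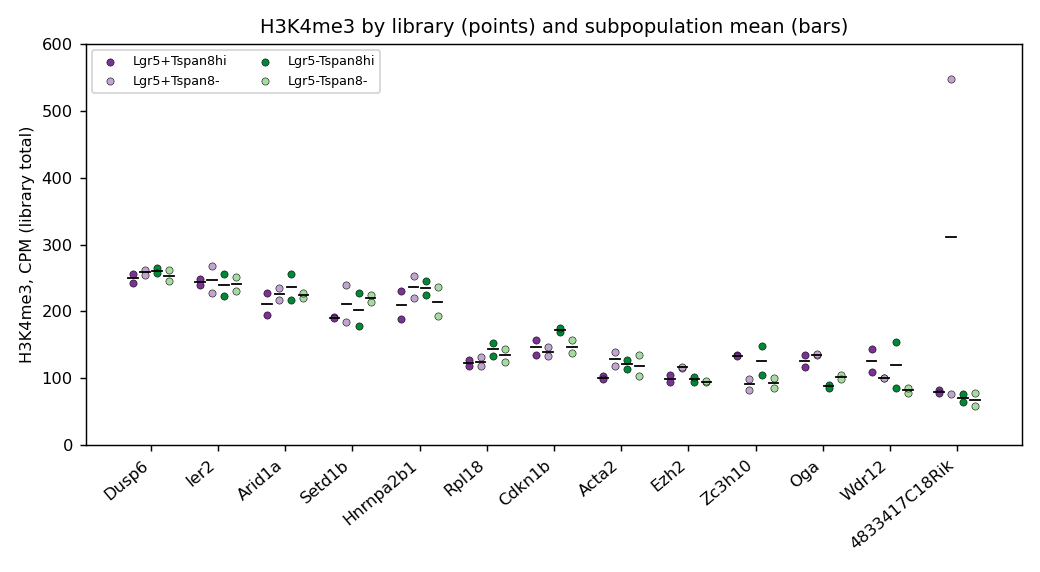
H3K4me3 in CPM for 13 members, with a point for each library and a bar for the mean of the 2 libraries of a subpopulation. Points of different subpopulations overlap at most genes from Dusp6 to Ezh2, Zc3h10, Oga and Wdr12 show the widest differences, and 1 library sets the level of 4833417C18Rik at 548 CPM.

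Named members with the widest spread were Cttnbp2nl, Oga, Wdr12 and Gpx4, at 0.61 to 0.63 on the log2 scale. They were picked for that spread, so differences between their libraries follow from the choice. Oga encodes the enzyme that removes O-linked N-acetylglucosamine from proteins. It read 135 and 117.5, 135 and 136, 90.6 and 84.9, and 105 and 98.3 CPM. All 4 Lgr5+ libraries lay above all 4 Lgr5- libraries. Gpx4, the glutathione peroxidase that protects membrane lipids, read 99.3 and 97.8, 96.5 and 74.0, 137 and 124, and 111 and 96.2 CPM, and was highest in Lgr5-Tspan8hi cells. Wdr12, a ribosome biogenesis factor that shares its promoter with Carf, read 144 and 109, 100.4 and 100.5, 154 and 84.9, and 78.2 and 85.7 CPM. Its Lgr5-Tspan8hi replicates, at 154 and 84.9 CPM, were the highest of the 8 libraries and one of the 3 lowest.

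Of all 1445 members 1 exceeded a 2-fold spread, and it is named after its values were seen. The non-coding gene 4833417C18Rik (chromosome 11, 95858817 to 95861046) read 548 CPM in Lgr5+Tspan8- replicate 2 and 58.2 to 81.9 CPM in the other 7 libraries. Their mean was 73.0 CPM, so the gene is a member only through that library. It did not pass in any comparison (edgeR adjusted p = 0.936 with Tspan8 and 0.979 with Lgr5).

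The first comparison set the 4 Tspan8hi libraries against the 4 Tspan8- libraries, averaging Lgr5+ and Lgr5- cells. In edgeR's quasi-likelihood test, fitted over all genes with Benjamini-Hochberg adjustment, 0 of the 1445 members passed an adjusted p of 0.05, where 9 of 19009 genes (0.0473%) passed. DESeq2 also called 0 members. An unadjusted p under 0.05 was reached by 72 members (4.98%) and by 1122 of all genes tested (5.9%). The median log2 fold change of the members, Tspan8hi minus Tspan8-, was 0.04 (0.005 to 0.07 over the alternatives), with 900 of 1445 (62.3%) above 0. The median of all genes tested was -0.002, with 9432 of 19009 (49.6%) above 0. Of the other strong promoters 55.4% were above 0. The 95% interval of the log2 fold change lay within ±0.5 for 1392 members (96.3%) and within ±1 for 1444, so that a 2-fold change of H3K4me3 in either direction lay outside the interval for all members but 1. That 1 was 4833417C18Rik.

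The smallest p-values of that comparison were at Zc3h10, Tmem131 and Wdr12. Genes picked for a small p tend to have libraries that separate by side, so such separation is not separate support. Zc3h10, a zinc finger gene that shares its promoter with Rpl41, read 134 and 133, 99.4 and 82.2, 148 and 104, and 100.4 and 86.1 CPM. Each Tspan8hi library lay above each Tspan8- library. Its log2 fold change was 0.51 ± 0.13 (SE, edgeR adjusted p = 0.124; 0.00337 to 1 over the alternatives). Without Lgr5-Tspan8hi replicate 2 the log2 fold change was 0.627 at Zc3h10 and 0.63 at Wdr12, and calls in such fits are counted at the end. Leaving out that library leaves only the library that stands apart in the Lgr5-Tspan8hi arm. Tmem131, a membrane protein gene, stood at 128 ± 6.06 CPM in Tspan8hi and 97.0 ± 12.3 CPM in Tspan8- libraries (SD, n = 4 each), without overlap, with a log2 fold change of 0.41 ± 0.12 (SE, edgeR adjusted p = 0.435). Among lists with at least 5 members, the median fold change was between -0.12 for the 5 H3K4 methyltransferase complex genes and 0.13 for the 6 respiratory chain genes. All 6 of the latter were above 0, as were all 5 antisense and other named non-coding members, against 62.3% of all members.

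**Figure D5:**
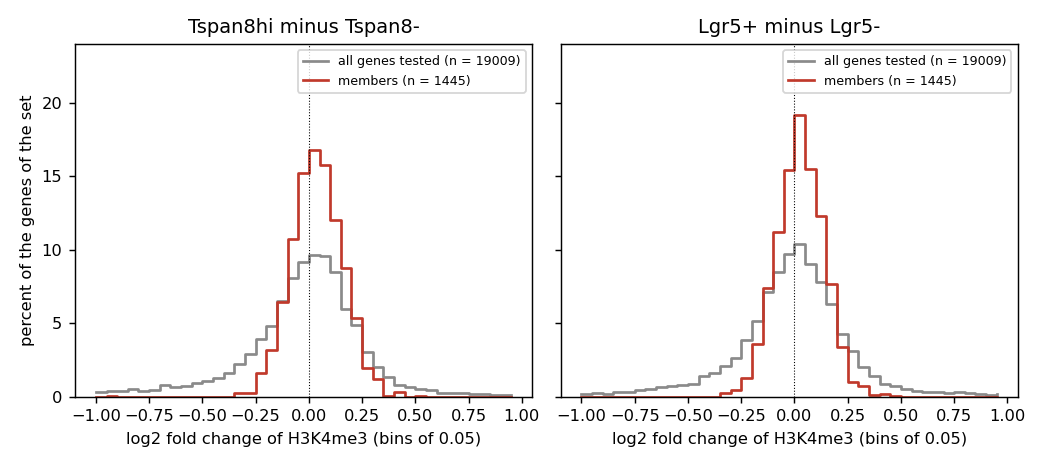
Log2 fold change of H3K4me3 with Tspan8 (left) and Lgr5 (right), as the percent of genes in bins of 0.05, for the 1445 members in red and the 19009 genes tested in grey (members included), with values beyond ±1 not drawn. The members are centred at 0.04 and 0.02 and are narrower than all genes, most of which have lower counts.

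The second comparison set Lgr5+ against Lgr5- libraries, averaging Tspan8hi and Tspan8- cells. Of the members 0 passed, where 8 of 19009 genes (0.0421%) passed, and DESeq2 called 0 members as well. An unadjusted p under 0.05 was reached by 51 members (3.53%) and by 946 of all genes tested (4.98%). The median log2 fold change, Lgr5+ minus Lgr5-, was 0.02, with 873 members (60.4%) above 0, and -0.01 to 0.04 over the alternatives. Over all genes tested the median was 0.003, with 9660 of 19009 (50.8%) above 0. Of the other strong promoters 49.4% were above 0. There were 1399 members (96.8%) with a 95% interval within ±0.5. Oga had the smallest p, at 131 ± 8.94 CPM with Lgr5 and 94.7 ± 8.82 CPM without (SD, n = 4 each; log2 fold change 0.48 ± 0.12 SE, edgeR adjusted p = 0.263, 0.152 to 1 over the alternatives). Rps12, a protein of the small ribosomal subunit, stood at 140 ± 13.1 and 107 ± 17.6 CPM and Btf3l4 at 138 ± 18.4 and 105 ± 9.4 CPM. Both had overlapping libraries and log2 fold changes of 0.41 (edgeR adjusted p = 0.651 and 0.613). Rps12 shares its start region with the small nucleolar RNA genes Snora33 and Snord100, and Btf3l4 with Txndc12.

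The interaction asked whether the Tspan8 difference depends on Lgr5, and the overall test whether any of the 4 subpopulations differs. For the interaction 0 members passed and 0 of 19009 genes (0%) passed, with 40 members (2.77%) and 800 of all genes (4.21%) at an unadjusted p under 0.05, and DESeq2 called 0. The estimates are less precise, with 120 members (8.3%) having a 95% interval within ±0.5 and 1413 (97.8%) within ±1. The smallest p-values were at Smim27, Fbxw7 and Polg, with log2 values of -0.70, -0.66 and -0.73 (edgeR adjusted p = 1). Fbxw7, the substrate receptor of a ubiquitin ligase, read 112.1 and 112.2, 160.1 and 138, 139.7 and 164, and 114 and 143 CPM. The first pair, from Lgr5+Tspan8hi cells, was below the other 6 libraries. In the overall test 0 members passed, where 17 of 19009 genes (0.0894%) passed, with 59 members (4.08%) and 1002 of all genes (5.27%) at an unadjusted p under 0.05 and a lowest member's edgeR adjusted p of 0.451. DESeq2 called 0 members there too.

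H3K27me3 was tested within the members as well, since the rule used its mean and not its difference between subpopulations. Only 1203 of the 1445 members passed the filter on low counts. With Tspan8, 0 of them passed the threshold, where 74 of 22099 genes (0.335%) passed, and with Lgr5 0 passed, where 9 of 22099 (0.0407%) passed. An unadjusted p under 0.05 was reached by 47 members (3.91%) with Tspan8, against 2847 of all genes tested (12.9%), and by 37 (3.08%) with Lgr5, against 1590 (7.19%). DESeq2, which leaves genes of low counts without an adjusted p, gave one to 78 of the 1445 members with Tspan8 and 97 with Lgr5, called none of those, and says nothing on the rest. Intervals were wide, with 797 members (66.3%) within ±1 on the log2 scale for Tspan8 and 803 (66.7%) for Lgr5. Summed over all members, H3K27me3 was 0.244 ± 0.00781 CPM per kb in Tspan8hi libraries and 0.219 ± 0.00946 in Tspan8- libraries (SD, n = 4 each), and the ranges of 0.234 to 0.252 and 0.205 to 0.225 did not overlap, nor did they without Lgr5-Tspan8hi replicate 1. The other strong promoters stood at 0.514 ± 0.0393 and 0.457 ± 0.0456 CPM per kb, with ranges that overlapped. Hox genes, the list with the highest median H3K27me3 of the 39, stood at 6.29 ± 0.723 and 7.58 ± 1.39 CPM per kb, and their ranges of 5.51 to 7.12 and 6.46 to 9.61 overlapped as well. These sums were scaled to library totals alone. The TMM scaling factors that the fit adds were 1.007 to 1.03 in Tspan8hi and 0.9579 to 1 in Tspan8- libraries. Their part in the difference was not tested. The fitted log2 fold change of single members had a median of 0.09 (0.01 to 0.14 over the alternatives), with 767 of 1203 above 0. At the other strong promoters the median was larger, at 0.18, with 465 of 607 above 0. Of those 607 genes, 99 (16.3%) had an unadjusted edgeR p under 0.05 and 3 passed the threshold. Over all genes tested the median was 0.02, with 11648 of 22099 above 0. In the same libraries the number of genes without an H3K27me3 count at the lowest total was 2054 to 4191 with Tspan8hi and 2046 to 2063 with Tspan8-. Its part in the difference was not tested.

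The smallest H3K27me3 p-values with Tspan8 were at Kitl, Epha2 and Ksr1. As above, genes picked for a small p tend to have separated libraries, so separation here is not separate support. Kitl encodes stem cell factor, the ligand of the receptor Kit, and Epha2 an ephrin receptor. In the order of subpopulations used above, Epha2 read 12.6 and 8.99, 4.66 and 5.95, 13.6 and 9.52, and 5.53 and 6.45 CPM of H3K27me3. Kitl read 33.5 and 22.1, 17.3 and 14.4, 34.1 and 23.3, and 21.2 and 16.6 CPM. Ksr1, a scaffold of the ERK cascade, read 53.2 and 37.3, 29.3 and 26.5, 43.9 and 32.1, and 30.4 and 24.1 CPM. At each of the 3 genes every Tspan8hi library lay above every Tspan8- library, with log2 fold changes of 0.91 ± 0.27, 0.65 ± 0.19 and 0.53 ± 0.16 (SE, edgeR adjusted p = 0.132, 0.13 and 0.14; over the alternatives 0.039 to 0.537, 0.0277 to 0.583 and 0.0299 to 0.614). Their H3K4me3 gave log2 fold changes of 0.09, -0.01 and -0.19 (edgeR adjusted p = 0.968, 0.995 and 0.896). With Lgr5 the smallest p-values were at Serbp1, Lbh and Memo1. Memo1 read 34 and 33.7, 23.5 and 24.6, 19.3 and 19.5, and 21.9 and 20.9 CPM. Every Lgr5+ library lay above every Lgr5- library, with a log2 fold change of 0.48 ± 0.16 (SE, edgeR adjusted p = 0.454). Serbp1 and Lbh stood at 7.45 ± 1.46 and 9.28 ± 2.84 CPM with Lgr5 and 3.23 ± 1.96 and 4.09 ± 2.32 CPM without (SD, n = 4 each; edgeR adjusted p = 0.266 and 0.419). Without Lgr5-Tspan8hi replicate 2 the log2 fold changes with Tspan8 were 1.04 at Epha2, 0.779 at Kitl and 0.641 at Ksr1. Those with Lgr5 were 1.96 at Serbp1 and 2.2 at Lbh. At Serbp1 and Lbh the library that stands apart, then alone in its arm, was the lowest at 0.758 CPM. Calls in fits with a library left out are counted at the end. The replicate block, under which Kitl and Ksr1 passed with Tspan8, is given there too.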

How the data were processed

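H3K4me3 and H3K27me3 were measured by chromatin immunoprecipitation and sequencing in 16 libraries, 2 for each of 4 subpopulations and 2 marks; chromatin was sheared to 200 to 400 bp, per the labels' protocols. For each library the authors deposited a raw read count per gene, without normalization. The submitters' processing notes name featureCounts and mm10. The sources used here do not give the aligner, the annotation or the region counted per gene. Of 24 labelled samples, 8 are inputs and were not analysed here; levels are therefore not input-corrected.

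Identifiers of 25189 genes were matched to RefSeq genes of GRCm38.p6 and 1891 were not; 1273 matched genes lie outside the autosomes. Levels are CPM of the library total. Each mark was fitted on its 8 libraries with edgeR 4.0.16 in R 4.3.3 (filterByExpr, TMM, a mean per subpopulation, robust quasi-likelihood F test). P-values were adjusted by Benjamini-Hochberg over all genes tested, with a threshold of 0.05. Standard errors follow from the F statistic. All 1445 members passed the H3K4me3 filter. The median biological coefficient of variation was 11% at the members and 15.1% over all genes. Replicate libraries differed by more than sampling noise (chi-square per degree of freedom 2.9 to 5.43). The scripts were tested on simulated counts. Alternatives were DESeq2 1.42.0, RLE factors, library totals, loess offsets, no filter, a block for the replicate number, leaving out single libraries, and other limits of the rule.

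The members and gene lists were chosen with earlier results of these data known. Named members were taken 1 per promoter, leaving out predicted genes, clones and small RNAs: the 8 highest in H3K4me3, the 3 smallest p per comparison (none passed), up to 3 of the highest per list, the 4 widest and 4 narrowest spreads, those next to each limit, and Lgr5 and Tspan8. Some taken by the list part of the rule are given as counts. Other genes are named as examples or to complete a list, after their values were seen.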

Additional observations from a re-analysis of the deposited data

Results flagged for a closer look

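In 28 groups of 4 libraries (both Tspan8 and both Lgr5 sides for 7 values), 7 had a library far from the other 3; chance gives about 1 in 20. The values tested included the members with the widest spread, which favours such a finding. The library at 548 CPM of H3K4me3 at 4833417C18Rik, Lgr5+Tspan8- replicate 2, stood apart on both of its sides. At Gpx4 the lowest of the Lgr5+ libraries, at 74.0 CPM, and at Oga the lowest, at 117.5 CPM, were apart from the other 3. At Wdr12 the highest of the Lgr5- libraries, Lgr5-Tspan8hi replicate 1 at 154 CPM, was apart. At Cttnbp2nl the highest Tspan8- library, at 111 CPM, and the lowest Lgr5+ library, at 80.2 CPM, were apart.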

How the results depend on the processing

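The number of members moved with the limits of the rule: 5455 genes at a minimum of 50 CPM, 31 at 200 CPM, 391 at under 0.2 CPM per kb and 1900 at under 0.5 CPM per kb. With each library left out it was 1418 to 1473. The count of 0 members past the threshold held under RLE factors, library totals, loess offsets and no filter in all 6 comparisons, and under DESeq2 in the 4 of H3K4me3. For H3K27me3 DESeq2 gave no adjusted p to 1367 members with Tspan8 and 1348 with Lgr5, so its count of 0 covers few of them. With a library left out it ranged from 0 to 5 for H3K4me3 with Tspan8, 0 to 1 with Lgr5 and for the interaction, 0 to 4 over the subpopulations, and, for H3K27me3, 0 to 11 with Tspan8 and 0 to 9 with Lgr5. The count of 1 in each H3K4me3 comparison was 4833417C18Rik, without Lgr5+Tspan8- replicate 1, which leaves the library at 548 CPM alone in its arm. The counts of 5 and 4, and of 11 and 9 for H3K27me3, came without Lgr5-Tspan8hi replicate 2. Without Lgr5-Tspan8- replicate 1, 1 member passed for H3K27me3 with Tspan8, Lamc1. A lone library was assumed to vary like the other groups, and the cause was not tested. Over all genes tested the counts past the threshold ranged more widely, from 1 to 105 (9 as reported) for H3K4me3 with Tspan8, 1 to 13 (8) with Lgr5, 0 to 15 (0) for the interaction and 3 to 97 (17) over the subpopulations, and from 13 to 1230 (74) for H3K27me3 with Tspan8 and 3 to 160 (9) with Lgr5. The share of counts ranged from 18.2% to 18.6% and the median spread from 0.22 to 0.27. At H3K27me3, on whose low level the members were chosen, 242 members fell under the filter on low counts.

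Replicate numbers are shared between groups, but same-numbered libraries did not deviate together: 1 of 6 correlations for H3K4me3 was over 0.1 (-0.0545 to 0.111) and 0 of 6 for H3K27me3. With the replicate block 3 members, Kitl, Ksr1 and Lamc1, passed for H3K27me3 with Tspan8 (edgeR adjusted p = 0.0277, 0.0299 and 0.0252), and 0 in the other 5 comparisons. Over all genes tested the block raised the count for H3K27me3 from 74 to 681 with Tspan8 and from 9 to 80 with Lgr5.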
